A study of Rattus norvegicus with 16 samples.

Results

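Kidney and plasma of rats were compared by their microRNAs (miRNAs), with all animals having received saline in place of an X-ray contrast medium. The study it comes from concerns contrast-induced acute kidney injury (CI-AKI), in which iodinated contrast medium harms the kidney. A miRNA entered the comparison when the array software called it detected on all 4 kidney arrays or on all 4 plasma arrays. That rule took 178 of the 350 rat miRNAs on the array, read on 8 of the 16 arrays of the series.

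The rats were male Sprague-Dawley animals, 12 per treatment, that had gone without water for 3 days and had then received furosemide, a loop diuretic, at 10 mg/kg. The saline rats therefore carried the dehydration and the diuretic as well, and were not untreated animals. They were injected through a tail vein with normal saline, in the volume (10 ml/kg) that the CI-AKI rats received of Omnipaque (350 mg iodine per ml), and blood and kidneys were taken 8 h later. Each array read 1 pool of RNA of 3 rats, so that a group had 4 pools, and the spread between pools leaves out part of the spread between animals. The labels state neither the age of the rats nor whether the kidneys were perfused. All plasma arrays lay on 1 slide and all kidney arrays on another, so tissue and slide cannot be told apart in any difference below.

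MiRNAs are short RNAs that pair, mainly through a short seed near their 5' end, with messenger RNAs and lower their translation or stability. Some are made mainly by particular cell types: the miR-200 family by epithelia, miR-122 by hepatocytes, miR-1 and miR-133 by muscle, miR-451 by red cell precursors and miR-223 by myeloid cells. Plasma holds miRNAs released from blood cells and from many organs, bound to proteins or enclosed in vesicles, whereas a kidney extract holds tubule, vessel and interstitial cells together with any blood left in the organ.

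The mature sequences of the miRNAs on which the comparison turned are shown 5' to 3' with the seed, bases 2 to 8, in capitals. They are RefSeq's, of the rat assembly GRCr8, and were found for 154 of the 178 miRNAs; array names that give no arm were matched to the arm that miRBase's renaming assigned to them. The first set was called higher in kidney and is described below, and its 3 miR-196 members share the seed AGGUAGU.
let-7f: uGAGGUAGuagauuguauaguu
let-7a: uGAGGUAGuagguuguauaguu
miR-30c: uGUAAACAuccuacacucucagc
let-7d: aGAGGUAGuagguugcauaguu
let-7e: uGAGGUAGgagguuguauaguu
miR-194: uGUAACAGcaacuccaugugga
miR-196a: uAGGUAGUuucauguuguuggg
miR-196b: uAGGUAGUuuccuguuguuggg
miR-196c: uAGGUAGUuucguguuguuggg
miR-96: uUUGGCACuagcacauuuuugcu
miR-218: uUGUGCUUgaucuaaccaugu
The next set was called lower in kidney, and the first of them, miR-122, is encoded at chr18:61028831-61028852, plus strand.
miR-122: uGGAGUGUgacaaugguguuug
miR-327: cCUUGAGGggcaugagggu
miR-1: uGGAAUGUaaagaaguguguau
miR-300-5p: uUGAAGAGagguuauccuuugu
miR-223: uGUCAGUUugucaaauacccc
miR-451: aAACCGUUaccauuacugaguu
let-7d*: cUAUACGAccugcugccuuucu
The last set holds miRNAs that share a seed and lay on opposite sides, together with let-7i, which carries the seed of let-7a. miR-192 and miR-215 differ at 3 of the first 21 bases, whereas miR-23a and miR-23b, like miR-101a and miR-101b, differ at 1 of 21. miR-192 is encoded at chr1:212994232-212994252, plus strand, and miR-215 at chr13:99383003-99383024, plus strand.
miR-192: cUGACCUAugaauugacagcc
miR-215: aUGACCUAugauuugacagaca
miR-23a: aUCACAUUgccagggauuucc
miR-23b: aUCACAUUgccagggauuacc
miR-101a: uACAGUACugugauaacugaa
miR-101b: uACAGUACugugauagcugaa
let-7i: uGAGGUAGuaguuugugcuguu

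The 4 kidney arrays were alike, and 1 plasma array was dimmer than the others. The kidney arrays detected 179, 195, 169 and 178 miRNAs for pools 1 to 4, and the plasma arrays 188, 200, 208 and 84. Means were 180.2 ± 10.8 and 170 ± 57.9 (SD, n = 4), which did not differ beyond the spread between arrays (exact permutation test, two-sided, p = 0.971). On plasma pool 4 the labelling spike-in, an RNA added before labelling, read 51.8 scanner units against 1591 to 3155 on the other plasma arrays and 2461 to 2986 on the kidney arrays, and the software marked it out of range. The hybridisation spike-in, added afterwards, read 18193 there, within the software's range, and 20393 to 23081 on the other plasma arrays. The 75th percentile of the shared miRNAs was 10.5 ± 0.207 in kidney and 8.46 ± 2.32 in plasma (log2 scanner units, SD, n = 4), with every kidney array above every plasma array (exact permutation test, two-sided, p = 0.0286, the smallest that 70 labellings allow). The difference of 2.035 was 0.890 without plasma pool 4, and 10.25 more detected miRNAs in kidney became -18.42.

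**Figure D1:**
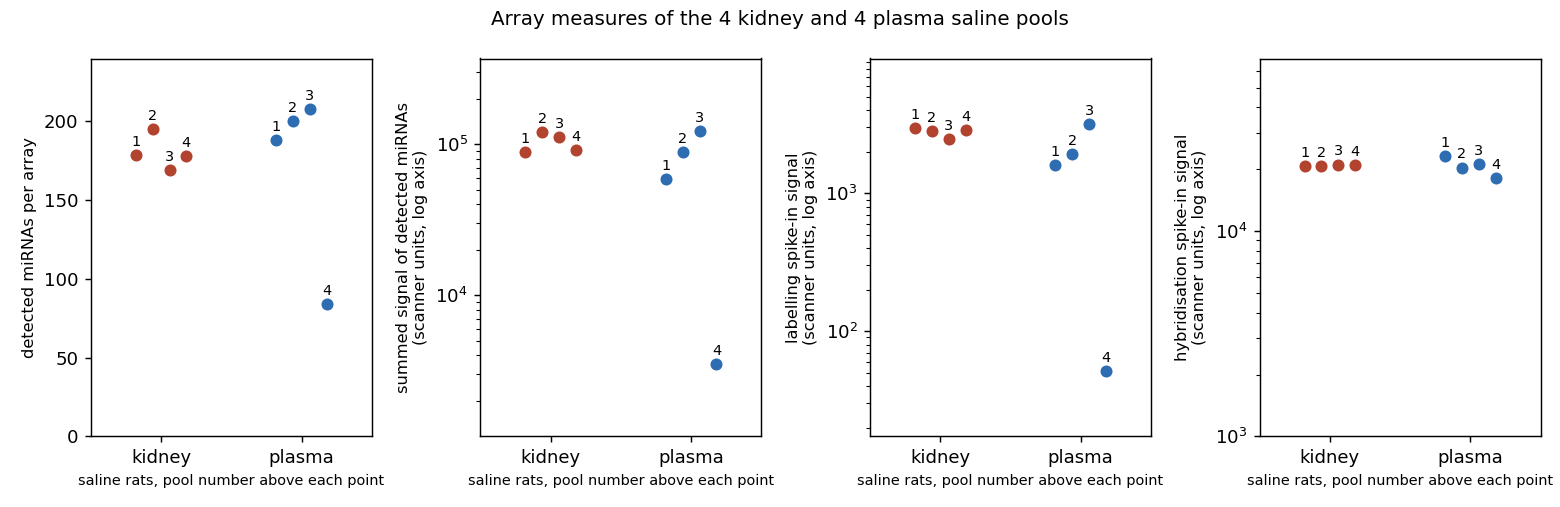
Each point is 1 pool of 3 saline rats, with the pool number above it: detected miRNAs per array, their summed signal, the labelling spike-in and the hybridisation spike-in (scanner units, the last 3 on log axes). Plasma pool 4 lies at 84 detected miRNAs and 51.8 units of labelling spike-in, while its hybridisation spike-in of 18193 lies near those of the other arrays.

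Because arrays differed in brightness, each array's signals were divided by the 75th percentile of the 65 miRNAs that every one of the 16 arrays detected, and returned to a common scale; values below are these scaled signals. A difference is kidney minus plasma of the mean log2 scaled signal, where a signal under 1.37 (each array's lowest detected signal, median of the arrays) was raised to that floor. Differences are therefore relative to the shared miRNAs and are not amounts per cell or per ml, and in bulk RNA fewer cells of a type and less RNA per cell cannot be told apart. A fold given as a bound uses each array's own lowest detected signal in place of the floor; on some arrays that signal was under 1.37, so a bound can be larger than the fitted fold. Levels are compared between tissues for 1 miRNA and never between miRNAs, whose probes differ. A miRNA was called at an adjusted p under 0.05 in a limma fit to the 8 arrays, adjusted by Benjamini-Hochberg over all 178.

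Most of the miRNAs that were tested differed between the tissues. Of 178, 59 (33.1%) were called higher in kidney and 79 (44.4%) lower, and 40 were not called. Counts within families and lists below stand beside these general shares. The median difference over all 178 was -0.398 on the log2 scale, so a difference of that size stood at the middle of the list. 45 of the higher calls and 69 of the lower calls were larger than 2-fold, and 13 and 25 were larger than 8-fold. The 4 kidney arrays all lay above the 4 plasma arrays for 60 miRNAs (33.7%), and the 4 plasma arrays all above the kidney arrays for 80 (44.9%). All 138 calls had the same sign within each of the 2 slide rows, which held 2 pools of each tissue. For the 58 higher and 76 lower calls whose groups did not overlap this had to be so, and it is no separate check.

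**Figure D2:**
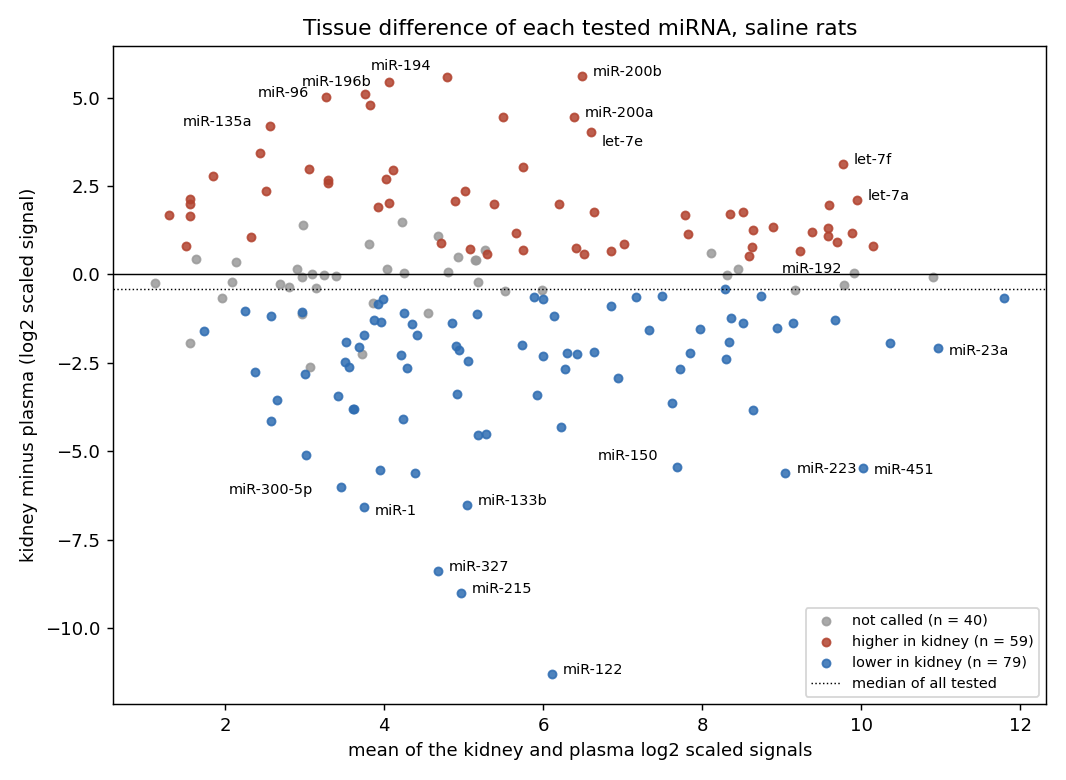
Each of the 178 tested miRNAs is plotted by the mean of its kidney and plasma log2 scaled signals (horizontal) and by kidney minus plasma (vertical, log2), with the 59 called higher and the 79 called lower in kidney coloured and the median of -0.398 dotted. miR-122 at -11.31 lies farthest below 0 and miR-200b at 5.62 farthest above it.

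Detection itself divided the list. 66 miRNAs were detected on all 8 arrays, of which 20 were called higher and 36 lower in kidney. 86 were detected on all kidney arrays and on 1 to 3 plasma arrays, and for 79 of them the only missing array was plasma pool 4. 14 were detected on every kidney array and no plasma array, 7 on every plasma array and no kidney array, and 5 on every plasma array and 1 to 3 kidney arrays. Just outside the rule stood 19 miRNAs found on 3 plasma arrays and no kidney array, among them the muscle miRNAs miR-133a and miR-206, and 7 found on 3 kidney arrays. Without plasma pool 4, chosen as an alternative after seeing the data, 203 miRNAs met the rule, 63 were called higher and 117 lower, and the 25 that entered were all called lower in kidney. These 25 could enter only by detection on the remaining plasma arrays, since the kidney side of the rule was unchanged. Their direction therefore follows largely from the rule. 137 of the 138 calls were made again without that array.

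The choice of scaling moved the balance between higher and lower calls. With the quantile normalization 80 miRNAs were called higher and 55 lower, and in the authors' deposited table of log2 values the same fit called 83 higher and 53 lower; the median differences were 0.574 and 0.552. Scaling to the labelling spike-in gave 66 and 67, with a median of -0.08. Without any scaling 45 were called higher and 12 lower (median 1.354), and after normexp background correction 16 and 57 (median -1.277). Of the 138 calls, 97 (46 higher, 51 lower) were called in the same direction under each of the 8 other scalings and signal summaries tried, and 24 (12 higher, 12 lower) when the unscaled and normexp signals were required as well. Near 0, a direction therefore holds only relative to the scaling.

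The miR-200 family, which keeps epithelial cells in their epithelial state by lowering ZEB repressors, had 4 of 5 members called higher in kidney, with a list median of 4.46 against -0.398 over all tested, and none lower. miR-200b read 615, 627, 619 and 653 on the kidney arrays of pools 1 to 4 and 21.2, 31.7, 28.9 and -4.11 on the plasma arrays. The groups lay far apart, and plasma pool 4 alone was below 0. Its difference was 5.62 ± 0.95 (SE, n = 4 pools a tissue, limma adjusted p = 0.000738), and 4.55 without plasma pool 4. miR-200a, from the same gene cluster, read 366, 409, 412 and 386 in kidney and 14, 20.6, 22.2 and 15.5 in plasma. Here the plasma arrays lay close together, 3 of them calling it detected, and the difference was 4.47 ± 0.17 (SE, adjusted p = 1.05e-07). miR-429, the cluster's remaining member, differed by 4.46 ± 0.84 (SE, adjusted p = 0.0014), or 3.52 without plasma pool 4, and miR-200c by 2.36 ± 0.14 (SE, adjusted p = 1.23e-06). miR-141, the neighbour of miR-200c, was not called: it read 15.1, 20.3, 18.7 and 15.9 in kidney and 17.2, 13.4, 18.2 and 13.7 in plasma, and its 2 probes went opposite ways (-0.74 and 0.70). miR-141 was called higher under quantile normalization, median scaling, the percentile over all miRNAs, the brightest probe and in the authors' deposited table (0.689 to 1.497). After normexp correction 2 members of the family were called, and miR-200c read -0.054.

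miRNAs that lie within the Hox gene clusters, which pattern the body axis and stay active in the adult kidney, were higher in kidney for 5 of 5 members, with a list median of 3.43. That median is the difference of miR-196c, which no plasma array detected, so it depends on the floor. The 3 miR-196 members entered through the kidney arrays alone, so their direction follows largely from the rule. With the floor raised to the highest of the arrays' lowest detected signals, the median was 0.92 and 4 of 5 members were called. miR-196b read 116, 108, 108 and 108 on the kidney arrays and 5.28, 1.63, 3.4 and -24.3 on the plasma arrays, none of which called it detected. Since no plasma array measured it, the difference is a bound: kidney was at least 18.2-fold higher, or at least 35.1-fold without plasma pool 4, whose lowest detected signal of 43.2 was far above those of the other arrays (0.851 to 2.32). miR-196a, which silences Hoxb8, read 79.3, 78.7, 79.5 and 80 in kidney and was at least 13.9-fold higher (27.3-fold without plasma pool 4). miR-196c, with the same seed, read 17.2 to 18.2 in kidney and was at least 4.18-fold higher (9.04-fold without plasma pool 4). The 3 sequences differ from one another at 1 base each, and whether the probes separate them was not tested. miR-10b read 641, 687, 687 and 687 in kidney, where it stood at the 75th percentile that sets the scale on 3 arrays, and 291, 138, 209.8 and 178 in plasma. It differed by 1.78 ± 0.22 (SE, adjusted p = 0.000103), and miR-10a-5p by 0.92 ± 0.19 (SE, adjusted p = 0.00206). After normexp correction 2 of the 5 were called, and miR-196c read -0.925 without a call.

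Further miRNAs were detected on every kidney array and on no plasma array. miR-96, miR-182 and miR-183 are cut from 1 transcript known from sensory epithelia, and 3 of 3 were called higher in kidney. With the raised floor 1 of 3 was called, and the median of the 3 was 0. miR-96 read 45.5, 57.2, 66.5 and 52 in kidney and 3.21, -0.586, -0.848 and -5.85 in plasma, at least 12.5-fold higher (26.8-fold without plasma pool 4). miR-182 read only 5.57 to 7.02 in kidney and was at least 1.52-fold higher (3.35-fold without plasma pool 4), with its 3 probes spread from -0.17 to 3.58. miR-183, detected on some plasma arrays, differed by 2.58 ± 0.49 (SE, adjusted p = 0.0014). All 3 turned below 0 after normexp correction, with no call (-0.057, -1.251 and -0.856). miR-218, which is encoded within the Slit genes, read 74.7, 72.8, 77.5 and 74.5 in kidney and was at least 11.8-fold higher. After normexp correction miR-218 stood at 0.18, without a call. miR-135a read 18.9, 26.5, 27.2 and 30.3 and was at least 6.27-fold higher (without plasma pool 4, 22.3-fold and 13.8-fold); it read -0.663 after normexp correction, without a call. miR-9 and miR-9*, the arms of a hairpin best known from the brain, read 8.84 to 10.3 and 5.09 to 5.3 in kidney. Their bounds were 2.36-fold and 1.09-fold. miR-672 was at least 2.16-fold and miR-333_v11.0 at least 1.46-fold higher. Without plasma pool 4 the bounds of miR-9, miR-672 and miR-333_v11.0 were 5.2-fold, 4.17-fold and 3.21-fold. Apart from miR-183, the miRNAs of this paragraph are given here because no plasma array detected them. That plasma pools 1 to 3, which detected 188 to 208 miRNAs each, missed them is therefore no separate result. The direction of their differences also follows largely from that choice. After normexp correction miR-9, miR-9*, miR-672 and miR-333_v11.0 read -1.174, -1.277, -1.148 and -1.267, with no call.

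**Figure D3:**
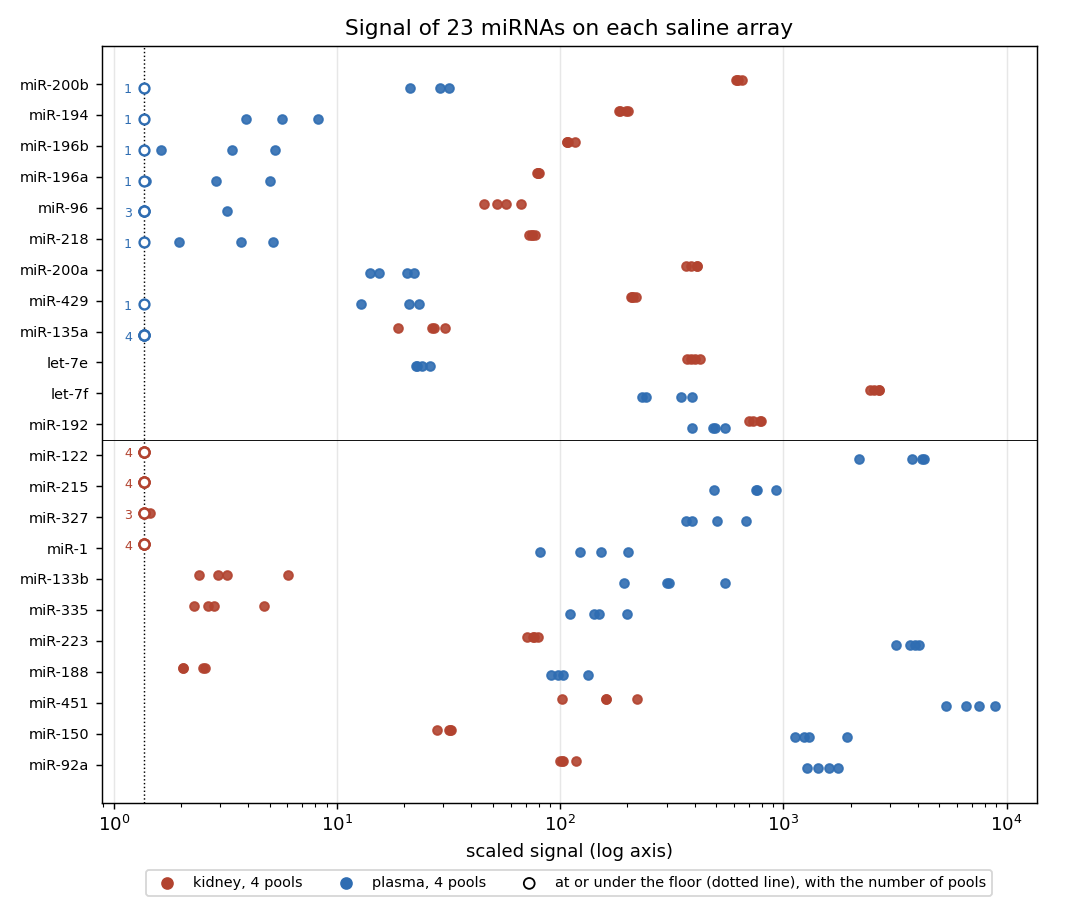
Scaled signal (log axis) of 23 miRNAs on each of the 4 kidney and 4 plasma saline arrays, with open circles and a number for pools at or under the floor of 1.37. The upper 12 were higher in kidney, where their kidney points cluster closely, and the lower 11 were lower, with miR-122, miR-215 and miR-1 at the floor on all 4 kidney arrays.

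The let-7 family, whose members share the seed GAGGUAG and are raised as cells mature, was higher in kidney for 7 of 8 members, with a median of 1.51. let-7f read 2541, 2440, 2680 and 2671 in kidney and 348, 242, 232 and 391 in plasma, a difference of 3.13 ± 0.19 (SE, n = 4 pools a tissue, limma adjusted p = 1.23e-06). let-7a read 1959, 1968, 2119 and 2133 against 540.1, 369.5, 371 and 678, and differed by 2.11 ± 0.21 (SE, adjusted p = 2.71e-05). Both groups lay well apart, and the plasma arrays of pools 1 and 4 held more of both than those of pools 2 and 3. let-7e differed most, from 369.5, 384, 402 and 422 in kidney to 26, 22.8, 22.7 and 24.1 in plasma (4.04 ± 0.11, SE, adjusted p = 1.47e-08). let-7d differed by 1.71 ± 0.10 (SE, adjusted p = 1.14e-06). let-7i was the 1 member called lower in kidney, at -0.41 ± 0.12 (SE, adjusted p = 0.0128), and read 271, 253, 280.1 and 278 in kidney and 319, 377, 409 and 340 in plasma. That call was lost under 7 of the 10 other scalings, and its sign turned under quantile normalization (0.156), median scaling (0.145), the percentile over all miRNAs (0.150) and no scaling (1.624). let-7a and let-7i differ at 4 of 22 bases, all outside the seed.

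Families with smaller differences on the kidney side followed. The miR-30 family, abundant in podocytes and tubules, had 2 of 5 members called higher and 1 lower (median 0.608). Over all 178 miRNAs 33.1% were called higher, so this count was not far from the general share. It ranged from 1 member without scaling to 4 under quantile normalization. miR-30c read 1256, 1613, 1635 and 1632 in kidney and 331, 477, 442 and 330.3 in plasma (1.97 ± 0.17, SE, adjusted p = 1.19e-05). miR-30a differed by 1.33 ± 0.31 (SE, adjusted p = 0.00415), while miR-30e (0.61 ± 0.31) and miR-30b-5p (-0.01 ± 0.18) were not called. miR-30d was called lower at -0.61 ± 0.17, with plasma pool 1 (374) close to the kidney arrays, lost its call under 6 alternatives and turned to 1.421 in one of them, without scaling. miR-30e was called higher under 4 scalings and in the authors' deposited table (0.926 to 1.402) and without plasma pool 2 or 3 (0.800 and 0.805). For miR-30b-5p, quantile normalization (0.648), median scaling (0.547) and the authors' deposited table (0.523) each called it higher. miR-99 and miR-100, which lower MTOR, and the miR-125 family were higher for 5 of 5 members, led by miR-99b at 2.95 ± 0.16 (SE, adjusted p = 7.74e-07) and miR-125a-5p at 1.77 ± 0.13 (SE, adjusted p = 3.9e-06). miR-100 (1.91 ± 0.76, adjusted p = 0.047) and miR-125b-5p (0.52 ± 0.18, adjusted p = 0.0317) stood close to the threshold. miR-100 was not called when any 1 of the kidney pools or plasma pool 2 was left out (1.853 to 2.101), and its difference was 1.075, still called, without plasma pool 4. miR-125b-5p was not called with the replicate number as a block or when any 1 of the kidney pools, plasma pool 1 or plasma pool 2 was left out (0.372 to 0.530). None of the 5 was called after normexp correction, where miR-99a, miR-99b and miR-100 read -0.036, -0.291 and -0.852.

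miR-103 and miR-107, which target Dicer, were both higher in kidney (1.99 ± 0.21 and 1.14 ± 0.17). The miR-29 family, which lowers collagens and other matrix proteins, had 2 of 3 members higher, with miR-29b at 1.21 ± 0.17 (SE, adjusted p = 0.000199), miR-29c at 0.79 ± 0.29 (SE, adjusted p = 0.0387) and miR-29a, not called, at -0.30 ± 0.22. The call of miR-29c was lost without any 1 of the kidney pools or plasma pool 1 (0.672 to 0.820). With 3 members, 2 higher calls cannot be set apart from the 33.1% called higher over all 178. miR-26a was higher at 0.82 ± 0.20 and miR-26b stood at 0.03 ± 0.13 without a call. Of the miR-181 family, miR-181a was higher at 1.99 ± 0.29 (SE, adjusted p = 0.000317), with -0.078 and no call after normexp correction, and 3 of 4 members were not called: miR-181c at 1.40 ± 0.57, miR-181b at 0.05 ± 0.27 and miR-181d at -0.03 ± 0.14. miR-181c was called higher in 13 of 26 alternatives, miR-181b in 3 and miR-181d in 4, and under quantile normalization, the percentile over all miRNAs and in the authors' deposited table all 4 members were called. miR-204, which is abundant in tubule epithelium, read 34.7, 41.5, 41 and 47.2 in kidney and 20.7, 64.8, 34.7 and 20 in plasma and was not called (0.40 ± 0.37); plasma pool 2 lay above every kidney array, and without it miR-204 was called higher, as it was under quantile normalization, median scaling, the percentile over all miRNAs and in the authors' deposited table (0.952 to 1.384). Neither miR-34a (1.10 ± 0.48) nor miR-34b (0.36 ± 0.46), targets of p53, passed the test; miR-34a was called higher in 11 of 26 alternatives, among them quantile normalization (2.198), the spike-in scaling (1.421) and without plasma pool 4 (0.594), and miR-34b under quantile normalization (1.523) and in the authors' deposited table (1.957). miR-378, from the Ppargc1b gene, was higher at 1.68 ± 0.19 (SE, adjusted p = 5.96e-05).

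On the plasma side, the liver miRNA stood first. miR-122, which makes up much of the miRNA of hepatocytes, read 4283, 2174, 4187 and 3775 on the plasma arrays of pools 1 to 4 and -0.175 to 1.07 on the kidney arrays, none of which detected it. Plasma was at least 3478-fold higher, a bound set by the lowest detected signals of the kidney arrays; with the floor, the fitted difference was -11.31 ± 0.22 (SE, n = 4 pools a tissue, limma adjusted p = 4.83e-09). Every kidney value lay under the floor and was raised to it, so the SE and the p rest on the plasma pools and the floor. With the raised floor the difference was -6.33, and after normexp correction -6.26. It was called under all 26 alternatives in which it was tested. That is no separate support, since miR-122 entered through detection on the plasma arrays alone.

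miR-1 and miR-133b, made by skeletal and heart muscle, were also lower in kidney. miR-1 read 123, 81.1, 202 and 152 in plasma and was detected on no kidney array, so that plasma was at least 128-fold higher. miR-133b read 192, 308, 546 and 301 in plasma and 6.02, 2.95, 2.42 and 3.23 in kidney, a difference of -6.52 ± 0.38 (SE, adjusted p = 1.06e-06). The third muscle miRNA tested, miR-499, which lies within a myosin heavy chain gene, lay on the other side: it read 21.9, 25.4, 25.9 and 20.8 in kidney and 1.96, 3.27, 3.52 and 3.43 in plasma (2.98 ± 0.21, SE, adjusted p = 3.26e-06), and turned to -0.791 after normexp correction, without a call. miR-133a and miR-206 were found on 3 plasma arrays and no kidney array, and miR-208 on no saline array. Of the 3 muscle miRNAs tested, 2 were called lower and 1 higher, beside 44.4% and 33.1% over all 178. With 3 members this count cannot be set apart from the general shares.

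Red cell and leukocyte miRNAs were lower in kidney for each member tested. Of the red cell miRNAs, miR-451, which matures without Dicer, read 5371, 8824, 7534 and 6551 in plasma and 102, 159.7, 160.3 and 221 in kidney, a difference of -5.49 ± 0.26 (SE, n = 4 pools a tissue, limma adjusted p = 3.42e-07). miR-144, from the same transcript, read 53.4, 114, 109.5 and 55 in plasma and differed by -4.08 ± 0.31 (SE, adjusted p = 4.48e-06). Without scaling 1 of these 2 was called, with a median of -2.75. The summed signal of the 2 red cell miRNAs was 5425 to 8938 in plasma and 105.4 to 227 in kidney. Whether this plasma signal came from cells or from released RNA was not tested.

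All 4 leukocyte miRNAs tested were lower in kidney, with a median of -4.98. miR-223, which restrains granulocyte maturation, read 3191, 3690, 4051 and 3898 in plasma and 75.3, 71.3, 79.7 and 76.6 in kidney (-5.61 ± 0.12, SE, adjusted p = 4.83e-09). miR-150, from lymphocytes, read 1231, 1307, 1129 and 1920 against 28.2, 32.2, 32.3 and 31.9 (-5.46 ± 0.18, SE, adjusted p = 5.47e-08). No plasma array of either came near a kidney array. miR-142-5p and miR-142-3p, the 2 arms of the blood-cell hairpin miR-142, differed by -4.50 ± 0.20 (SE, adjusted p = 2.5e-07) and -0.62 ± 0.20 (SE, adjusted p = 0.0185). The call of miR-142-3p was lost under 7 of the 10 other scalings, with the replicate number as a block and without kidney pool 2 or 4 (-0.579 and -0.569), its sign turned under quantile normalization (0.103) and without scaling (1.414), and plasma pool 1 lay among the kidney arrays. The summed signal of the 4 was 4724 to 6231 in plasma and 244 to 281 in kidney. miR-126, which is listed for platelets and for endothelium, went the other way: it read 631, 611, 632 and 584 in kidney and 288, 233, 314 and 206 in plasma (1.26 ± 0.15, SE, adjusted p = 0.000103).

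Among miRNAs of vessels and stroma, miR-126*, miR-221 and miR-222 were lower in kidney at -0.69 ± 0.21, -0.65 ± 0.17 and -1.35 ± 0.20. The first and second of these changed sign under quantile normalization (0.186 and 0.159), in the authors' deposited table (0.118 and 0.311) and without scaling (1.343 and 1.387), and miR-222 without scaling (0.456), in no case with a call. The calls of miR-126*, miR-221 and miR-222 held in 17, 18 and 21 of 26 alternatives. Those of miR-126* and miR-221 were also lost after normexp correction and under median and spike-in scaling, among others. Of the smooth muscle and stromal miRNAs 4 of 5 were lower in kidney, beside 44.4% over all 178. miR-145 read 45.5, 170, 84.8 and 55.7 in plasma and 16.9, 15, 11.7 and 13.5 in kidney (-2.46 ± 0.39, SE, adjusted p = 0.000531), and miR-143, from the same transcript, differed by -1.37 ± 0.30. miR-214 and miR-199a-3p, which share a transcript, were lower at -2.25 ± 0.22 and -1.24 ± 0.12, whereas the other arm, miR-199a-5p, was higher at 0.73 ± 0.23 (SE, adjusted p = 0.0188) read -0.775 after normexp correction and was not called without kidney pool 2 (0.665). Without scaling, miR-143 (0.665) and miR-199a-3p (0.791) turned, again with no call.

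The miR-17-92 cluster, a set of proliferation-linked miRNAs on chromosome 15, and its paralogs were lower in kidney for 9 of 9 members, with differences of -3.83 to -2.01. The 6 members encoded together on chromosome 15 (GRCr8) were all lower, from -3.83 to -2.23. miR-92a, which is abundant in red cells, read 1752, 1270, 1434 and 1605 in plasma and 102, 99.9, 118 and 103 in kidney (-3.83 ± 0.14, SE, adjusted p = 8.69e-08). miR-19a read 191, 198, 201 and 202 against 16.5, 21.8, 21 and 15.6, with plasma arrays close to one another (-3.42 ± 0.14, SE, adjusted p = 1.58e-07). miR-18a, miR-25 and miR-93 differed by -3.44 ± 0.22, -2.94 ± 0.17 and -2.01 ± 0.12. Without scaling none of the 9 was called and miR-93 stood at 0.029; under each of the 9 other scalings 9 of 9 were called.

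miR-15b and miR-16, which share the seed AGCAGCA and lower BCL2 and cyclins, were lower in kidney at -1.91 ± 0.15 (SE, adjusted p = 7.35e-06) and -1.93 ± 0.10 (SE, adjusted p = 5.24e-07), as were miR-497 (-1.58 ± 0.23) and miR-195 (-0.63 ± 0.10). miR-322, with the same seed, was not called (0.70 ± 0.55, or 0.090 without plasma pool 4), and it was called higher under spike-in scaling (1.021) and in the authors' deposited table (1.151). miR-195 turned under quantile normalization (0.267), in the authors' deposited table (0.105) and without scaling (1.405), and the other 3 without scaling (0.124, 0.104 and 0.452), with no call. miR-146a and miR-146b, induced by NF-kB, were both lower in kidney (-1.37 ± 0.17 and -2.49 ± 0.33), the former turning to 0.667 without scaling. miR-301a was lower at -2.21 ± 0.12 and miR-130a not called at -0.43 ± 0.25, but called lower without plasma pool 4 (-0.568). miR-152 stood at the threshold (-0.84 ± 0.34, adjusted p = 0.0498) and miR-148b-3p was not called (0.50 ± 0.39), except under median and spike-in scaling and in the authors' deposited table (0.814 to 1.057). miR-152 lost its call when any 1 of 7 pools, all but plasma pool 4, was left out (-0.911 to -0.645), and turned to 0.593 under quantile normalization, 0.462 in the authors' deposited table and 0.663 without scaling, with no call.

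Injury-linked miRNAs were read as well. miR-21, raised in many injured tissues, read 3027, 2332, 3025 and 2985 in kidney and 3770, 3808, 6161 and 4496 in plasma. It was called lower in kidney at -0.66 ± 0.19 (SE, adjusted p = 0.0125), higher under quantile normalization (0.429), and stood at 0.332 in the authors' deposited table and 1.375 without scaling, both with no call. miR-210, the main hypoxia-induced miRNA, was not called (-0.05 ± 0.19) and read 8.94 to 12.1 in kidney and 7.9 to 12.6 in plasma; 3 scalings called it higher (0.503 to 1.547). miR-31 was not called either (-0.67 ± 0.59), though without plasma pool 4 it was called lower at -1.29. miR-188 and miR-494 were lower in kidney at -5.53 ± 0.16 (SE, adjusted p = 2.53e-08) and -2.64 ± 0.24 (SE, adjusted p = 1.72e-05).

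Further miRNAs were seen on all plasma arrays and no kidney array, so that their direction follows largely from the rule. miR-327 read 366, 502, 389 and 679.5 in plasma and 0.432 to 1.46 in kidney, so that plasma was at least 402-fold higher. miR-300-5p, from the large imprinted cluster beside Dlk1 and Dio3, read 135, 52.2, 33.1 and 256 in plasma, at least 87.8-fold higher. Its plasma arrays spread widely, with pool 4 highest. miR-423 read 41.3, 36.5, 36.4 and 94.8 and was at least 38.8-fold higher, and miR-296* read 15.1, 10.72, 12.9 and 102 and was at least 11.7-fold higher. In both, plasma pool 4 stood above the other 3 pools, which lay close together, and without it the fitted difference of miR-296* went from -3.55 to -2.80. The bounds of miR-327, miR-300-5p, miR-423 and miR-296* all include plasma pool 4, the highest of their plasma pools, and are smaller without it. Of 37 miRNAs listed for the Dlk1-Dio3 cluster, 25 were detected on no saline array and 3 entered the test, 2 of them called lower in kidney; miR-409-3p was not called (-2.25 ± 1.04), with plasma pool 4 at 322 and the other plasma pools at 9.38 to 15.6. Without plasma pool 4 miR-409-3p was called lower, at -1.08. miR-335, found on all plasma arrays and 1 kidney array, differed by -5.62 ± 0.27 (SE, adjusted p = 3.59e-07).

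**Figure D4:**
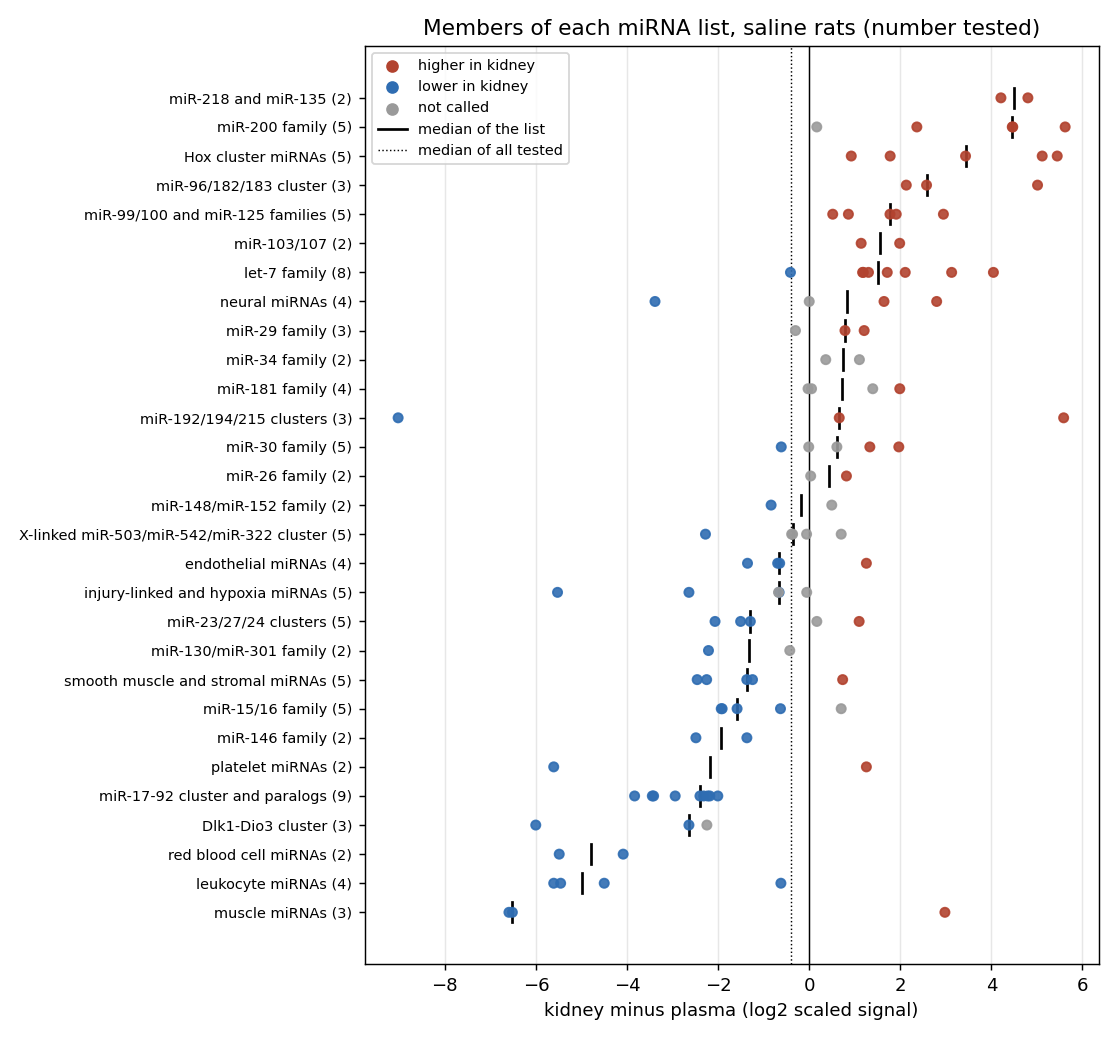
Each row is a list of related miRNAs with the number tested, each point a member's kidney minus plasma difference (log2), coloured by its call, each bar the list's median; the dotted line is the median of all tested, -0.398, and lists with 1 tested member are left out. The miR-200 family at 4.46 and the Hox cluster miRNAs at 3.43 lie to the right, and the red cell, leukocyte and muscle lists at -4.79, -4.98 and -6.52 to the left. The Hox median depends on the floor.

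Seeds were compared next, since miRNAs of 1 seed share many of their predicted targets. 22 seeds were carried by more than 1 tested miRNA, 62 miRNAs in all, and 4 of these seeds had calls on both sides. Over all 178 miRNAs 33.1% were called higher and 44.4% lower, and the count was not set against that of unrelated miRNAs. The widest gap lay between miR-192 and miR-215, both carrying UGACCUA. miR-192 read 699, 734, 782 and 794 in kidney and 492, 547, 485 and 391 in plasma, and was called higher in kidney at 0.66 ± 0.13 (SE, adjusted p = 0.00205), though not after normexp correction or without scaling. miR-215 read 754, 925, 487 and 765 in plasma and 0.364, 0.788, 1 and 1.16 in kidney, where no array detected it, so that plasma was at least 672-fold higher. Both probes of miR-215 gave the same difference (-9.04 and -9.02). miR-194, whose gene is present in 2 copies, lies beside miR-192 on chromosome 1 and beside miR-215 on chromosome 13 (chr13:99382730-99382751, GRCr8). It read 184, 197, 185 and 200.3 in kidney and 3.93, 5.67, 8.22 and -0.736 in plasma, and differed by 5.59 ± 0.50 (SE, adjusted p = 1.3e-05). The 3 miRNAs of these 2 loci thus spanned -9.03 to 5.59.

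miR-23a and miR-23b, which share UCACAUU and lie in different clusters, also separated. miR-23a read 901, 1007, 1018 and 985 in kidney and 4225, 4175, 3608 and 4406 in plasma (-2.07 ± 0.11, SE, adjusted p = 8.15e-07), and miR-23b 1077, 1102, 1144 and 1157 and 559.8, 483, 509 and 545 (1.10 ± 0.10, SE, adjusted p = 1.89e-05). Of their cluster partners, miR-27a went with miR-23a (-1.50 ± 0.31) and miR-27b was not called (0.17 ± 0.19). miR-24, encoded in both clusters, was lower in kidney at -1.29 ± 0.12. Without scaling miR-27a and miR-24 turned to 0.530 and 0.743, with no call. miR-101a and miR-101b, with the seed ACAGUAC and named after their values were seen, differed by 0.67 ± 0.25 (SE, adjusted p = 0.0399) and -1.18 ± 0.27 (SE, adjusted p = 0.00434), and miR-101b lost its call under 5 alternatives. The call of miR-101a held in 13 of 26 alternatives. It was lost after normexp correction, where the sign turned (-0.23), without scaling, with the total signal per miRNA and with the brightest probe. It was also lost with a raised floor, with no filter, with the replicate number or the slide row as a block, and without any 1 of the kidney pools or plasma pool 1.

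Arms of 1 hairpin, some of them chosen after their values were seen, were set side by side where both were tested, which was so for 13 hairpins with a starred arm. The starred arm is the one named as less abundant. Over all 178 miRNAs 33.1% were called higher and 44.4% lower, so 2 unrelated miRNAs can also be called on opposite sides. Whether arms part more often than unrelated miRNAs was not tested. In 3 hairpins the arms were called on opposite sides: let-7d at 1.71 ± 0.10 and let-7d* at -4.54 ± 0.20, miR-126 at 1.26 ± 0.15 and miR-126* at -0.69 ± 0.21, and miR-151 at 3.05 ± 0.95 and miR-151* at -1.61 ± 0.14. miR-151 stood at 1.97 without plasma pool 4. The opposition depended on the processing for the latter pairs: miR-126* changed sign under the 3 settings given above, and miR-151* changed sign under quantile normalization and was called higher in kidney in the authors' deposited table. let-7d* read 209.8, 209.5, 179 and 119.9 in plasma and 7.1, 8.22, 6.55 and 8.32 in kidney, while let-7d read 174, 172, 186 and 190.5 and 574, 566, 609.5 and 618. The groups lay apart in both, in opposite order. miR-125a-5p and miR-125a-3p, arms that the names do not star, parted in the same way, at 1.77 ± 0.13 and -3.80 ± 0.28. Over all 17 starred miRNAs tested, 5 were called higher in kidney and 11 lower, with a median of -1.19; under quantile normalization the counts were 6 and 6 and the median 0.32, so the balance of the starred arms depended on the scaling. miR-30c-1* differed by -4.15 ± 0.40 and miR-7a* by -2.76 ± 0.22, while miR-7a itself was not called (0.00) and was called lower without plasma pool 4 (-0.877).

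The tissue difference was read a second time in the CI-AKI rats, whose 8 arrays shared none of the saline arrays but lay on the same 2 slides. Their plasma pool 4 was dim as well, with 95 miRNAs detected and a labelling spike-in of 164.1. Over the 178 miRNAs, 50 (28.1%) were called higher and 82 (46.1%) lower in kidney. Of the 138 saline calls, 125 were called in the same direction (50 higher, 75 lower), 138 had the same sign and 0 were called the opposite way. miR-451 differed by -5.19 in the CI-AKI arrays and miR-200b by 5.03. miR-122 read 2668, 6188, 2664 and 689 in CI-AKI plasma and -0.16, 0.0491, -0.178 and -0.238 in CI-AKI kidney, where every value was under the floor, so its fitted difference is set by the floor. A test of the difference between the treatments (the interaction in a limma fit to all 16 arrays) called 1 of 178 (0.562%), miR-327, with 6 at an unadjusted p under 0.05.

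miR-327 read 8.95, 14.3, 15.8 and 11.4 on the CI-AKI kidney arrays, all above the 0.432 to 1.46 of the saline kidney arrays, and 1415, 846, 748 and 722 in CI-AKI plasma. No saline kidney array detected it, so the saline difference and the interaction depend on the floor. The floor was 1.37 for the saline arrays and was set anew from the arrays used for the CI-AKI arrays and for all 16. With these floors the tissue difference was -6.19 after contrast medium and -8.40 after saline, and the interaction was 2.27 ± 0.36 (SE, limma adjusted p = 0.00259). With the raised floor it turned to -0.933 (adjusted p = 0.379), and after normexp correction to -0.52 (adjusted p = 0.619). The call was also lost under quantile normalization (adjusted p = 0.11), without scaling (adjusted p = 0.997) and with a weight per tissue (adjusted p = 0.0856). The next smallest p of the interaction belonged to miR-335, miR-7a*, miR-347 and miR-199a-3p, each with an adjusted p of 0.995.

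**Figure D5:**
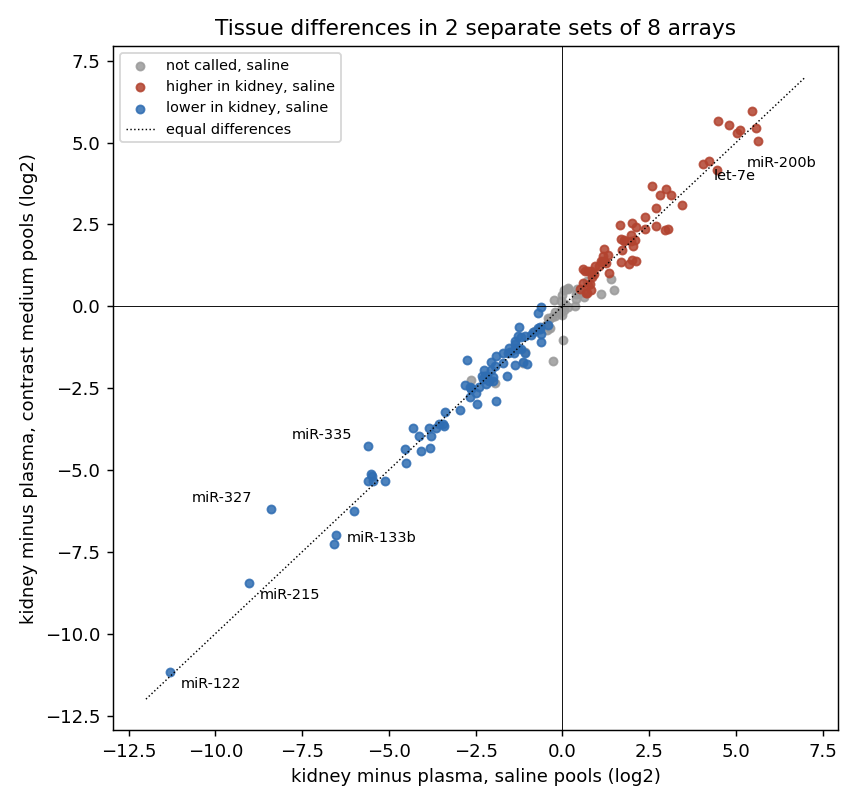
Kidney minus plasma (log2) of each of the 178 miRNAs in the 8 saline arrays (horizontal) and in the 8 CI-AKI arrays (vertical), coloured by the saline call, with equal differences on the dotted line. Signals under the floor of each set of arrays (1.37 for saline) were raised to it. The points follow the dotted line from miR-122 at -11.31 to miR-200b at 5.62, and miR-327, at -8.40 and -6.19, lies above it.

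Precision differed between the tissues. The median SD of log2 scaled signal over the 178 miRNAs was 0.092 between kidney pools and 0.442 between plasma pools, or 0.304 without plasma pool 4, and the plasma SD was the larger for 163. For the 66 miRNAs detected on all arrays the medians were 0.085 and 0.342. miRNAs with the smallest differences and detection on all 8 arrays were miR-30b-5p, miR-26b, miR-22 (-0.08 ± 0.23), miR-27b and miR-29a, whose SEs of 0.13 to 0.23 leave room for differences of either sign. Scaling moved several of these: miR-27b was called higher under 3 scalings and in the authors' deposited table (0.597 to 0.785), miR-26b under 2 (0.589 and 0.594), and miR-22 higher under quantile normalization (0.633) and in the authors' deposited table (0.473) but lower with a weight per array (-0.404). Probes of 1 miRNA went opposite ways by over 0.5 each for 6 of the 176 miRNAs with more than 1 probe: miR-10a-3p, miR-141, miR-30c-2*, miR-32, miR-333_v11.0 and miR-489. Base composition was similar on both sides, with a median GC content of 45.5% in the 51 miRNAs with a sequence called higher, 46.55% in the 68 called lower and 40.9% in the 35 not called.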

How the data were processed

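Per the file headers, each spot's intensity comes from Agilent's Feature Extraction (version 10.7.3.1), run on 1-colour arrays of 7000 spots (938 probes, 350 miRNAs), and the authors deposited background-corrected intensities and a detection call per miRNA. A processed table that the authors deposited holds log2 values, whose columns correlated at 0.980 to 0.998 with the scanner signals and share a median of 2.28; its scale is log2 and its columns are centred alike, with the steps not stated in the labels. Members and lists were chosen with earlier results of these data known.

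Processed intensities were averaged over spots and probes, without control and outlier-flagged spots, then scaled and floored as the report states and fitted with limma 3.58.1 (R 4.3.3), checked on simulated data. Array measures were tested by exact permutation. No spot was saturated, and the number of arrays limits the precision. Named miRNAs were the 10 largest differences each way among calls detected on all 8 arrays, the 10 with the largest kidney bound and those detected in plasma only, the members of each list (5 of a list with more than 6 tested), the 5 brightest per tissue, the 5 smallest differences and the 5 smallest interaction p. A bound sets the bright group's mean log2 signal against the mean, per array of the other group, of the higher of its lowest detected signal and the miRNA's own. Alternatives were other background corrections, scalings, summaries, filters, floors, weights and blocks, and each pool left out.

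The 4 pool numbers are shared by both tissues and the series' design draws both from the same 12 rats, but the letters in the sample descriptions differ between tissues, so the pairing is unsettled. Deviations of same-numbered pools correlated at 0.005, 0.329, 0.085 and 0.162.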

Additional observations from a re-analysis of the deposited data

Results flagged for a closer look

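A pool was taken as standing apart when its gap to the nearest of the other 3 exceeded, as a share of the range of the 4, Dixon's 95% critical value. This was checked in 246 sets of 4 pools (119 named miRNAs and 4 array measures in both tissues), and 29 sets met it. Chance alone gives about 1 in 20 where values are not tied. The miRNA signals were checked on the log2 scale with the floor. Where 3 pools lay at the floor, the remaining pool was flagged at any distance from it, as for miR-96 in plasma. The 1 in 20 does not hold for such sets. The array measure was the number of detected miRNAs, 84 on plasma pool 4. Scaled signals stood apart in kidney as follows: on kidney pool 1, miR-30c at 1260, miR-10b at 641, miR-150 at 28.2, miR-196b at 116, miR-672 at 13.7, miR-327 at 1.46 and miR-30c-1* at 1.59. On kidney pool 2, miR-423 at 1.4, miR-214 at 43.2, miR-27a at 311, miR-181d at 9.98, miR-146a at 204 and miR-21 at 2330. On kidney pool 3, miR-25 at 47.1. In plasma the same held on plasma pool 1, miR-96 at 3.2, miR-196c at 2.85, miR-182 at 1.51, miR-333_v11.0 at 1.8, miR-30d at 373, miR-499 at 1.95 and miR-181d at 7.5. On plasma pool 3, miR-9* at 2.99. On plasma pool 4, miR-296* at 102, miR-423 at 94.8, miR-200b at -4.1, miR-409-3p at 322, miR-542-3p at -13.6 and miR-542-5p at -4.87. Of the 14 plasma signals, 6 belonged to plasma pool 4, beside its labelling spike-in of 51.8.

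The tissue difference of miR-327 differed between the treatments, by 2.27 log2 units (limma interaction, adjusted p = 0.00259, with the floor set over all 16 arrays). The call ended under 5 alternatives, given above.

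Signals outside the miRNA measurement also differed between the tissues. The array's control probe hur_6, whose target is not stated in the files, had a mean of 5140 scanner units on the kidney arrays (4153 to 6031) and 11.4 on the plasma arrays (-1.67 to 26.4), before scaling. 3 related control probes, hur_1, hur_2 and hur_4, were also brighter on every kidney array than on any plasma array, and no miRNA comparison used them. The cause was not tested.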

How the results depend on the processing

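The counts of 59 higher and 79 lower calls stayed within 1.5 times under most of the 27 alternatives. Exceptions were normexp background correction (16 higher), no scaling (12 lower), detection on all 8 arrays (20 and 36 among 66 miRNAs) and a floor raised to the highest of the arrays' lowest detected signals (38 and 47). Leaving out 1 pool gave 53 to 63 higher and 77 to 117 lower calls, and 129 of the 138 calls were made in every such fit. Under no filter 55 and 110 were called, with 350 miRNAs tested. With the replicate number as a block (replicate block) the counts were 57 and 78, and 133 of 138 calls were kept; same-numbered pools did not all deviate together. The kidney excess of 10.25 detected miRNAs turned to -7 within slide row 1 and, without 1 pool, ranged from -18.42 (without plasma pool 4) to 22.92. The log2 signal difference of 2.035 was 1.166 and 2.903 within slide rows 1 and 2 (exact permutation p = 0.333 each). With the replicate block it was 2.035 (exact sign-flip p = 0.125). Each of these p is the smallest possible with so few arrays, so these tests could not pass the threshold. By the median of the shared miRNAs the difference (1.478) was no longer past the threshold. Without 1 kidney pool the exact p of the main difference was 0.0857 to 0.114, and without 1 pool that difference ranged from 0.8899 to 2.566. Of the saline calls, 55 were repeated in the CI-AKI arrays after normexp correction, 55 without scaling and 72 with the raised floor. The interaction called 0 miRNAs under those 3, under quantile normalization and with a weight per tissue.

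The 119 named miRNAs were recomputed in the same way. 65 values, of 41 miRNAs, took the opposite sign, with a call in the report or under the alternative, and 83 of uncalled miRNAs changed sign without a call. After normexp background correction miR-96 read -0.057, miR-135a -0.663, miR-196c -0.925, miR-9 -1.174, miR-672 -1.148, miR-182 -1.251, miR-333_v11.0 -1.267, miR-200c -0.054, miR-183 -0.856, miR-199a-5p -0.775, miR-499 -0.791, miR-9* -1.277, miR-99a -0.036, miR-99b -0.291, miR-100 -0.852, miR-181a -0.078 and miR-30e* -0.268. Under quantile normalization miR-30b-5p read 0.648, miR-142-3p 0.103, miR-126* 0.186, miR-221 0.159, let-7i 0.156, miR-195 0.267, miR-181d 1.563, miR-152 0.593, miR-21 0.429, miR-210 1.547 and miR-22 0.633. Without scaling miR-30d read 1.421, miR-142-3p 1.414, miR-126* 1.343, miR-221 1.387, miR-222 0.456, miR-143 0.665, miR-199a-3p 0.791, let-7i 1.624, miR-93 0.029, miR-15b 0.124, miR-16 0.104, miR-195 1.405, miR-497 0.452, miR-27a 0.53, miR-24 0.743, miR-146a 0.667, miR-152 0.663, miR-21 1.375 and miR-347 0.112. Under median scaling miR-30b-5p read 0.547, let-7i 0.145, miR-181d 0.531 and miR-210 0.503. With the percentile over all miRNAs let-7i read 0.15 and miR-181d 0.536. With the total signal per miRNA miR-7a read -1.122. In the authors' deposited table miR-30b-5p read 0.523, miR-126* 0.118, miR-221 0.311, miR-195 0.105, miR-181d 1.342, miR-152 0.462, miR-21 0.332, miR-210 1.374 and miR-22 0.473. With a weight per array miR-7a read -0.849. Without plasma pool 4 miR-7a read -0.877. Without 1 pool, miR-7a ranged from -0.877 to 0.48. The cause was not tested. Undetected miRNAs give bounds only, and those of the kidney-only miRNAs were lower with plasma pool 4 than without it.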

Other observations

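1 miRNA differed between the odd-numbered and even-numbered pools in every group. Pool number and slide column cannot be told apart here, and the miRNA was singled out after its values were seen. miR-139-3p read 36.8 and 35.5 on the saline kidney arrays of slide column 1 (pools 1 and 3) and 7.05 and 8.74 on those of column 3 (pools 2 and 4). In saline plasma, on the other slide, it read 757 and 576 in column 1 and 152 and 187 in column 3. In the CI-AKI arrays, which lay in columns 2 and 4, pools 1 and 3 read 26.7 and 35.3 in kidney and 493 and 489 in plasma, and pools 2 and 4 9.05, 8.77, 79.2 and 115. The column difference was 2.20 log2 units in saline kidney and 1.97 in saline plasma, and 1 of 178 miRNAs had one over 1 in the same direction in both tissues. Its tissue difference of -4.31 was larger than the column difference. The cause was not tested.

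Among miRNAs outside the lists, miR-874 was lower in kidney at -3.81 ± 0.25 and miR-342-3p, from an intron of Evl, at -3.64 ± 0.14 (SE, n = 4 pools, limma adjusted p = 2.11e-06 and 1.16e-07). miR-342-3p read 832, 559.7, 729 and 687 in plasma and 56.7, 52.7, 54.3 and 60.2 in kidney. miR-128, listed with neural miRNAs, read 101, 108, 97.7 and 85.3 in plasma and 8.29, 9.89, 10.2 and 9.01 in kidney (-3.38 ± 0.13), opposite to miR-9 of the same list. In the X-linked cluster of miR-503, miR-542 and miR-322, 1 of 5 tested members was called, miR-322* at -2.28 ± 0.17; miR-542-3p, miR-542-5p and miR-450a stood at -0.06, -0.36 and -0.39. Without plasma pool 4 these 3 were called lower as well, between -1.21 and -0.90, and also with the total signal per miRNA. Over all 178 miRNAs, with every pool in the fit, 44.4% were called lower. No member of the miR-290 cluster or of the list of miR-466 and its relatives entered the test.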
